A study of Sus scrofa with 14 samples.

Results

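CD antigens are surface molecules, numbered by the antibodies that recognise them, by which white blood cells and other cells are told apart. In the uterine lining of pseudopregnant pigs, 41 such genes were followed on an Affymetrix porcine array: 37 genes whose single symbol in the array's probe annotation is CD, digits and at most 1 letter (all but CD163, CD209 and CD74), and 4 leukocyte genes without a CD symbol, PTPRC, SRGN, CORO1A and PLEK. They are 41 of 6765 named genes. Each gene was read from its probe set with the highest mean. By the cells that textbooks assign them to, 10 were T and natural killer (NK) cell antigens, 4 B cell antigens, 7 antigens of myeloid and other antigen-presenting cells, 5 pan-leukocyte genes, and 15 antigens of non-leukocyte or many cell types. Levels are given as log2(signal + 16), differences are on that log2 scale, and a fold is 2 to the power of such a difference.

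The animals were crossbred cyclic gilts, young female pigs of 8 to 10 months, 1 array each. All were dosed when the second estrus began and again after 24 hours, with estrogen, which the submitters call an endocrine disruption of pseudopregnancy, or with corn oil as the control. Endometrium was collected after a saline flush of the uterus on day 13 or day 15 of pseudopregnancy, days that the submitters place in the window of conceptus attachment. Day 13 held 4 gilts per treatment and day 15 held 3, each labelled as a biological replicate. None of the 4 groups was pregnant.

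The endometrium holds resident leukocytes, chiefly T cells, NK cells and macrophages, among epithelium, stroma and vessels. T cells recognise antigen through a receptor carried to the surface by the CD3 chains and CD247, with CD4 or CD8 as coreceptor, and are costimulated when CD80 or CD86 on an antigen-presenting cell binds its partner. Many other CD antigens are not leukocyte genes at all: tetraspanins such as CD9, CD63 and CD81 sit in the membranes of most cells, and CD46, CD55 and CD59 shield cells from complement.

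Of the 41 genes, 32 were bright enough to test, with a mean level of at least 6.35, among 16754 probe sets tested. The 9 left out as dim were CD2, CD3G, CD4, CD27, CD79B, CD180, CD1E, CD300C and CD5L. So 4 of 10 T and NK cell antigens, 2 of 4 B cell antigens and 3 of 7 myeloid antigens had a mean under 6.35 over all arrays. Within day 15, CD2 averaged above it in control and estrogen gilts (6.81 and 7.15), and CD3G (6.58) and CD1E (6.70) did after estrogen. The members nearest to that limit were CD3D (mean 6.49) and PLEK (6.51) inside it and CD3G (6.11) and CD2 (6.06) outside it. The leukocyte markers PTPRC, SRGN and PLEK all passed, but PLEK only through the estrogen gilts of day 15: its mean was 8.06 there and 6.08 over the other 11 arrays, under the limit. Comparisons of PLEK with that group are therefore a description, and counts that hold it say so or are also given without it. All 9 measured epithelial markers, 8 of 9 endothelial and 8 of 8 stromal fibroblast markers passed too.

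Median signals were 177.4 to 217.1 per array. Of the arrays 3 stood apart: the first replicate of control day 13, the third of control day 15 and the second of estrogen day 15 had a median correlation with the other arrays of 0.860, 0.873 and 0.885, against 0.927 to 0.952 for the other 11. Each lies in a different group, so results that rest on them are given with and without them. RNA quality, read from the 3' minus 5' difference of control probe sets, also varied. For GAPDH this difference was 1.86 to 2.20 in estrogen gilts at day 13, and 2.55, 1.36 and 2.84 at day 15. The RNA quality index is the mean of such scaled differences, so a higher index means more 3' bias, not better RNA.

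The clearest pattern was in the pan-leukocyte genes after estrogen, where PTPRC, CD53, SRGN and PLEK were each higher in all 3 gilts of day 15 than in all 4 gilts of day 13. With all 14 arrays none of the 32 tested members passed in this comparison at an adjusted p under 0.05 (limma, Benjamini-Hochberg over all probe sets). The same holds for all probe sets, of which 0 passed (0%) and 1443 (8.61%) had an unadjusted p under 0.05. Among the members 21 of 32 were higher at day 15, as 52.3% of all probe sets were. Of them 6 had an unadjusted p under 0.05, all in that direction, as 4.77% of all probe sets had. PLEK is in both counts. These counts hold for the probe set used. Dimmer tested probe sets at such a p were lower for CD59 (-1.04) and CD164 (-1.26), and higher for CD40, CD53 and CORO1A. Without the 3 arrays that stand apart, SRGN and CD53 passed, and so did PLEK, against 221 of all probe sets (1.32%). Left in that fit at day 15 were the 2 estrogen gilts with the highest RNA quality index, and so the most 3' bias. Their index was 1.88 and 1.44, against -0.75 to 0.05 at day 13. With this index as a covariate as well, no member and no probe set passed (0%, with 1171 at an unadjusted limma p under 0.05). Since the index did not overlap between these days, that fit separates RNA quality from day poorly. SRGN, CD53 and PLEK also passed with array weights (1% of all probe sets), and SRGN and PLEK when only the estrogen groups were fitted (0.591%). In a whole tissue, more leukocytes and more RNA per leukocyte cannot be told apart.

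PTPRC encodes CD45, the tyrosine phosphatase on the surface of all nucleated blood cells. In estrogen gilts its level was 6.05, 6.21, 6.38 and 6.42 at day 13 and 7.10, 7.47 and 7.76 at day 15. The groups do not overlap, and the day 13 arrays lay close together. The difference was 1.18 ± 0.35 (SE), or 2.26-fold (limma adjusted p = 0.366). It was 1.16 (adjusted p = 0.137) without the 3 arrays.

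CD53 is a tetraspanin restricted to leukocytes. It had 7.63, 7.80, 7.58 and 7.79 at day 13 after estrogen and 8.75, 8.5 and 9.53 at day 15. Every day 15 array was above every day 13 array, and replicate 3 of day 15 was the highest. The difference was 1.23 ± 0.32 (SE; limma adjusted p = 0.278), and 1.44 ± 0.25 (adjusted p = 0.0198) without the 3 arrays. A second tested probe set of CD53 differed by 0.71 (limma adjusted p = 0.433).

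SRGN, the proteoglycan core protein of leukocyte granules, which endothelium also makes, had 8.77, 9.20, 8.92 and 8.76 at day 13 after estrogen and 10.07, 10.65 and 10.92 at day 15. The gap between the nearest arrays of the 2 days was larger than the whole spread of day 13. Its level differed by 1.64 ± 0.31 (SE), or 3.11-fold (limma adjusted p = 0.206). It passed without the 3 arrays (1.58 ± 0.25, adjusted p = 0.0143), and also with control day 13 replicate 1 alone left out (adjusted p = 0.0294; 0.263% of probe sets called).

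PLEK, pleckstrin, a protein kinase C substrate of platelets and leukocytes, had the largest fitted day difference, in a comparison through which it had entered the tested set. Its level was 5.11, 6.24, 5.21 and 5.73 at day 13 after estrogen and 7.48, 7.64 and 9.07 at day 15. All day 13 values lay under 6.35, the limit for dim probe sets, so the size depends on the pseudocount: 2.49 ± 0.51 (SE), or 5.60-fold, with 16 added, 2.98 with 1 and 1.72 with 64. PLEK missed the threshold with all arrays (limma adjusted p = 0.206) and passed without the 3 arrays (2.70 ± 0.52, adjusted p = 0.0321). These values are a description, since estrogen day 15 also brought PLEK into the tested set.

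**Figure D1:**
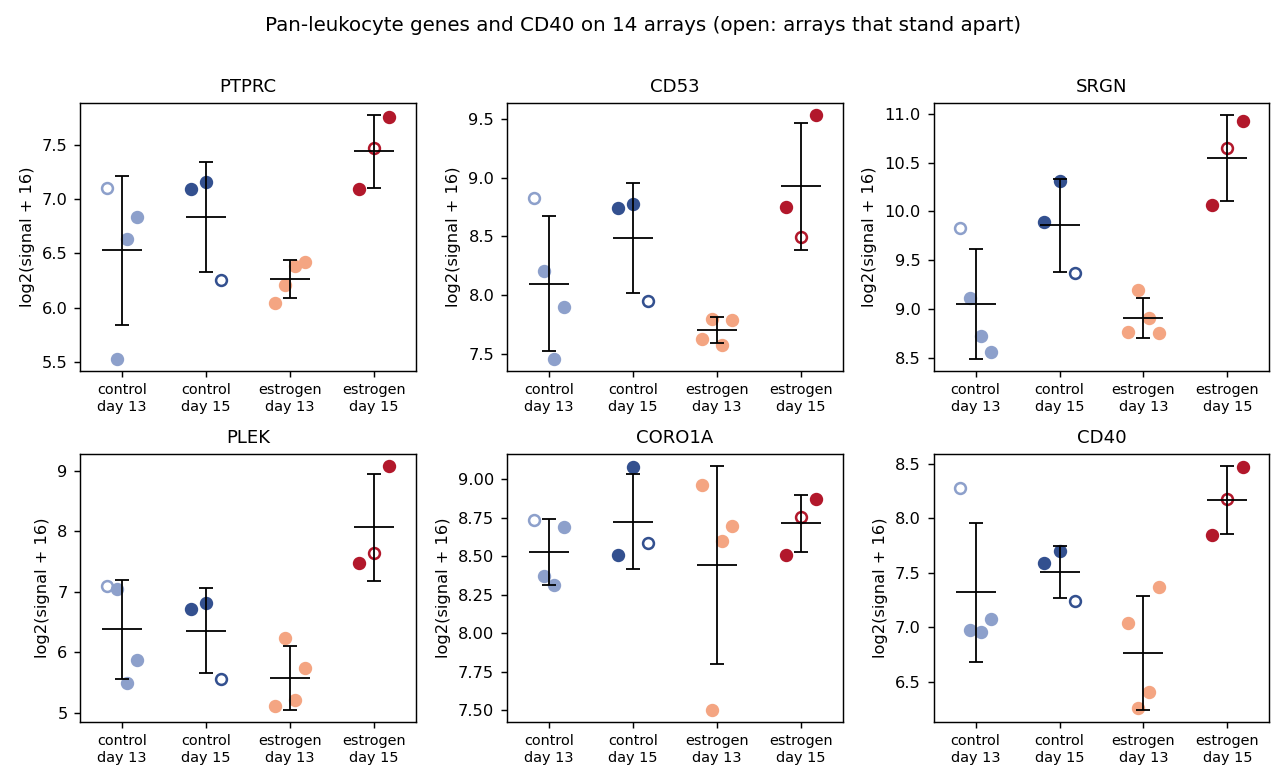
Levels of the 5 pan-leukocyte genes and CD40 as log2(signal + 16) on each of 14 arrays, by group; lines and bars are the mean and SD (n = 4 at day 13, n = 3 at day 15), and open circles are the 3 arrays that stand apart. In estrogen gilts the day 15 arrays of PTPRC, CD53, SRGN, PLEK and CD40 lie above all day 13 arrays, while those of CORO1A overlap; control groups overlap for all 6 genes.

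Other measures were read beside these pan-leukocyte differences. In estrogen gilts the summed signal of 8 endothelial markers was 5035 to 5370 at day 13 and 5766 to 6625 at day 15, without overlap. Their mean log2 deviation did not overlap either, at -0.24 to -0.02 and -0.0036 to 0.11. The endothelial markers did not all move 1 way: 5 were higher at day 15 and 3 lower (CDH5, TEK and ESAM). Their median difference was 0.17, beside 0.02 for all probe sets. The summed signal of 8 stromal fibroblast markers was 26962 to 33577 and 34206 to 39132, but their mean deviation overlapped, at -0.48 to 0.10 and -0.19 to -0.07. The 9 epithelial markers had summed signals of 43978 to 45550.4 and 42583 to 48574, and the 2 red blood cell markers HBB and ALAS2 had 810.0 to 1127 and 728 to 1196. The part of other cell types in the differences was not tested. With the RNA quality index as a covariate, SRGN differed by 1.63 ± 0.37 (SE), PLEK by 2.23 ± 0.60, CD53 by 0.96 ± 0.36 and PTPRC by 1.10 ± 0.42, none past the threshold in limma (adjusted p = 0.136 to 0.245).

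CORO1A, coronin 1A, an actin regulator of leukocytes, depended on the probe set. On the brightest one, chosen by the rule, estrogen gilts had 8.96, 7.50, 8.60 and 8.70 at day 13 and 8.51, 8.75 and 8.87 at day 15, and the days overlapped with a difference of 0.27 ± 0.29 (SE; limma adjusted p = 0.809). On the second it was 7.39, 7.31, 7.27 and 7.70 at day 13 and 8.99, 8.45 and 9.50 at day 15. The third had 6.68, 6.19, 5.99 and 6.80, then 7.61, 7.71 and 8.12. Both of the dimmer probe sets separated the days completely in estrogen gilts, with differences of 1.57 ± 0.42 (SE; limma adjusted p = 0.298) and 1.4 ± 0.38 (adjusted p = 0.296). Both passed without the 3 arrays (1.83, adjusted p = 0.00617, and 1.45, adjusted p = 0.0276). Of the 9 members with several tested probe sets, CORO1A was the 1 whose probe sets differed by over 1 log2 unit in this comparison. It was chosen for mention after its values were seen.

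**Figure D2:**
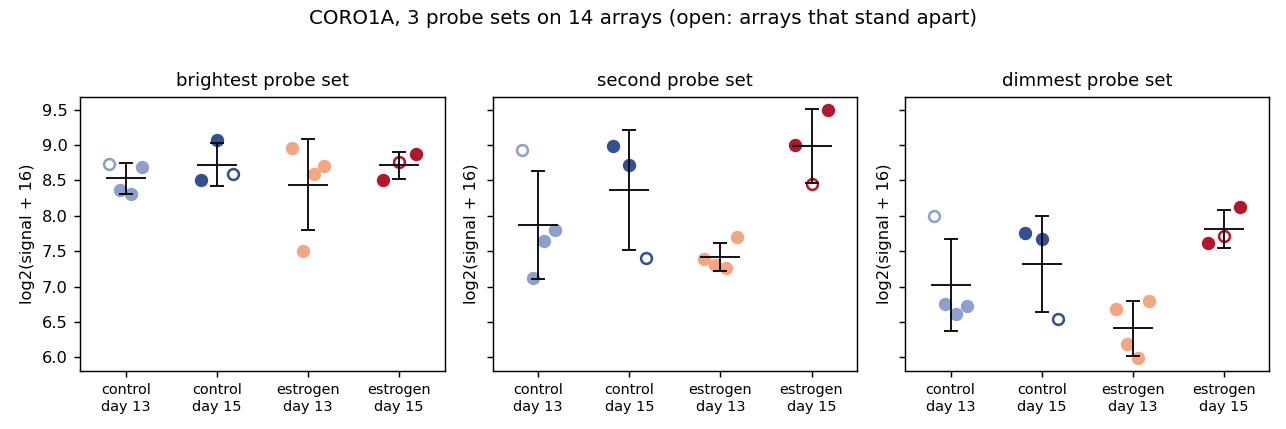
CORO1A on its 3 probe sets, as log2(signal + 16) on each of 14 arrays by group, with mean and SD (n = 4 at day 13, n = 3 at day 15) and the 3 arrays that stand apart as open circles. The brightest probe set overlaps between the days in estrogen gilts, and the other two hold every day 15 array above every day 13 array.

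Of the 6 tested T and NK cell antigens, 5 were higher and 1 was lower at day 15 after estrogen, at a median of 0.37 where the median of all tested probe sets was 0.02, and none had an unadjusted p under 0.05. CD3E, a signalling chain of the T cell receptor complex, had 7.38, 6.87, 6.89 and 7.22 at day 13 and 7.71, 7.43 and 8.41 at day 15. It was the 1 tested member of this class whose groups did not overlap, by a narrow margin, and its difference was 0.76 ± 0.37 (SE, limma adjusted p = 0.594). The other receptor chains spread widely: CD3D, the delta chain, had 6.46, 6.47, 4.66 and 7.05 at day 13 and 5.36, 6.64 and 7.42 at day 15. For CD247, the zeta chain, the values were 7.36, 6.51, 7.40 and 6.27 and then 6.59, 7.98 and 7.68.

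CD8A and CD8B encode the coreceptor chains of cytotoxic T cells, and CD8A is also found on pig NK cells. After estrogen CD8A had 7.10, 6.77, 6.54 and 6.99 at day 13 and 7.06, 6.88 and 7.88 at day 15, a difference of 0.42 ± 0.37 (SE). CD8B had 6.64, 6.82, 6.02 and 7.10, then 7.02, 6.27 and 7.51, with overlap and a difference of 0.29 ± 0.31. CD69, an early activation antigen of lymphocytes, went the other way at -0.69 ± 0.62 (SE), with 8.30, 8.55, 8.80 and 8.28 at day 13 and 7.99, 6.23 and 9.15 at day 15. Its lowest and highest values of the group were both at day 15, and the lowest was replicate 2, an array that stands apart. The CD69 difference was 0.09 without the 3 arrays. Replicate 3 was the highest of the 3 day 15 estrogen arrays for 5 of the 6 tested T and NK cell antigens, all but CD247.

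Among the dim T cell genes, CD2, the adhesion receptor of T and NK cells that binds CD58, had 5.61, 4.95, 5.41 and 5.61 at day 13 after estrogen and 6.94, 6.43 and 8.07 at day 15. These groups did not overlap either. Control gilts had 5.80, 4.44, 4.78 and 6.39 at day 13 and 7.07, 7.53 and 5.83 at day 15. In a fit without the filter on dim probe sets, added for these genes after the data were seen, CD2 differed by 1.60 ± 0.37 (SE) between the days over both treatments (limma adjusted p = 0.253). All values of day 13 but 1 lay under 6.35. CD4, the coreceptor of helper T cells, lay at 4.32 to 5.48 at day 13 and 4.69 to 6.68 at day 15 over both treatments. CD27 and CD3G lay at 4.55 to 6.35 and 4.47 to 7.18 over all 14 arrays.

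CD40, the receptor by which helper T cells activate B cells and other antigen-presenting cells, had the lowest p of any member in its class. Estrogen gilts had 7.03, 6.26, 6.40 and 7.37 at day 13 and 7.85, 8.18 and 8.47 at day 15, without overlap. Its difference was 1.4 ± 0.35 (SE), or 2.64-fold (limma adjusted p = 0.244), and the 2 other probe sets gave 1.41 and 1.07. It was 1.39 (adjusted p = 0.0528) without the 3 arrays, where the first of those other probe sets passed (1.54, adjusted p = 0.0173). CD38, an ectoenzyme of plasma cells and many other cells, showed no such pattern, with 6.63, 7.07, 7.85 and 6.12 at day 13 and 6, 6.93 and 6.67 at day 15 (difference -0.38 ± 0.45). CD79B, a signalling chain of the B cell receptor, and CD180, a toll-like receptor relative of B cells, were dim, at 4.23 to 7.34 and 4.31 to 5.28 over all arrays.

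Of the 4 tested myeloid antigens 2 were higher and 2 lower at day 15 after estrogen, with a median of 0.21 and none at an unadjusted p under 0.05. CD86, a costimulatory ligand for CD28, had 7.75, 7.85, 8.36 and 8.37 at day 13 and 8.47, 9.01 and 8.32 at day 15 (difference 0.52 ± 0.30 SE, limma adjusted p = 0.643). CD80, the other such ligand, had 6.70, 6.72, 6.57 and 7.13, then 6.20, 6.79 and 6.37 (difference -0.32 ± 0.22). The groups of both overlapped. CD83, a marker of mature dendritic cells, had 6.66, 7.85, 6.27 and 6.93, then 7.71, 7.42 and 7.99, a difference of 0.78 ± 0.52.

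CD14, the monocyte coreceptor for lipopolysaccharide, was level: 7.28, 7.72, 7.35 and 7.39 at day 13 after estrogen and 7.36, 7.10 and 7.55 at day 15, a difference of -0.09 ± 0.39 (SE). CD1E, a dim lipid-antigen-presenting molecule of dendritic cells, had 4.39, 5.47, 4.30 and 4.23 at day 13 and 6.55, 6.34 and 7.22 at day 15 after estrogen, with no overlap. Control gilts had 4.24, 4.99, 4.30 and 4.25, then 5.77, 5.45 and 4.42. In the fit without the filter CD1E differed by 2.11 ± 0.38 (SE) between the days after estrogen (limma adjusted p = 0.156) and by 1.44 ± 0.27 over both treatments (adjusted p = 0.104). CD300C and CD5L, a scavenger protein secreted by macrophages rather than a surface antigen, lay at 4.34 to 6.59 and 4.42 to 6.18 over all arrays.

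Antigens of non-leukocyte or many cell types lay near the median of all probe sets, with a median of 0.02 over the 15 tested, 8 of them higher and 7 lower at day 15 after estrogen. CD81, a tetraspanin of most cells, had 11.71, 11.58, 11.57 and 11.89 at day 13 and 12.20, 12.20 and 12.31 at day 15. These groups did not overlap, and the difference was 0.55 ± 0.24 (SE; limma adjusted p = 0.554). CD59, the inhibitor of the complement membrane attack complex, was the 1 member with every day 15 array below every day 13 array: 11.62, 11.79, 11.52 and 11.46, then 11.06, 10.90 and 11.19. It differed by -0.55 ± 0.26 (SE; limma adjusted p = 0.582), and on its dimmer probe set by -1.04 ± 0.27 (adjusted p = 0.278).

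CD46 and CD55, which inactivate complement convertases, did not go with CD59: they differed by 0.10 ± 0.24 and 0.04 ± 0.46 (SE) between the days after estrogen. CD55 reached 11.99 and CD46 12.58 on control day 15 replicate 3, an array that stands apart, against 9.32 to 10.85 and 11.17 to 11.67 on all others. CD200, an inhibitory ligand for myeloid cells, had 8.75, 8.67, 8.95 and 8.81 at day 13 and 9.03, 9.47 and 9.14 at day 15 after estrogen, without overlap but only 0.42 ± 0.34 apart. CD63, a tetraspanin of lysosomes, also did not overlap, at 12.87 to 13.04 and 13.08 to 13.27 (difference 0.19 ± 0.14).

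Of the remaining antigens, the vessel markers CD34 and CD93 differed by -0.0011 ± 0.19 and -0.48 ± 0.35 (SE), the tetraspanins CD9, CD82 and CD151 by 0.02, -0.07 and 0.12, and CD47, the ligand of SIRPA that restrains phagocytosis, by 0.33 ± 0.26. The adhesion molecules CD58, CD99 and CD164 differed by -0.38, -0.25 and -0.32. None of these 9 had an unadjusted limma p under 0.05. CD164 had 2 other probe sets, at -0.65 and -1.26, both lower at day 15 without overlap. Both passed without the 3 arrays (limma adjusted p = 0.0426 and 0.039), while the brightest one differed by -0.15 there.

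**Figure D3:**
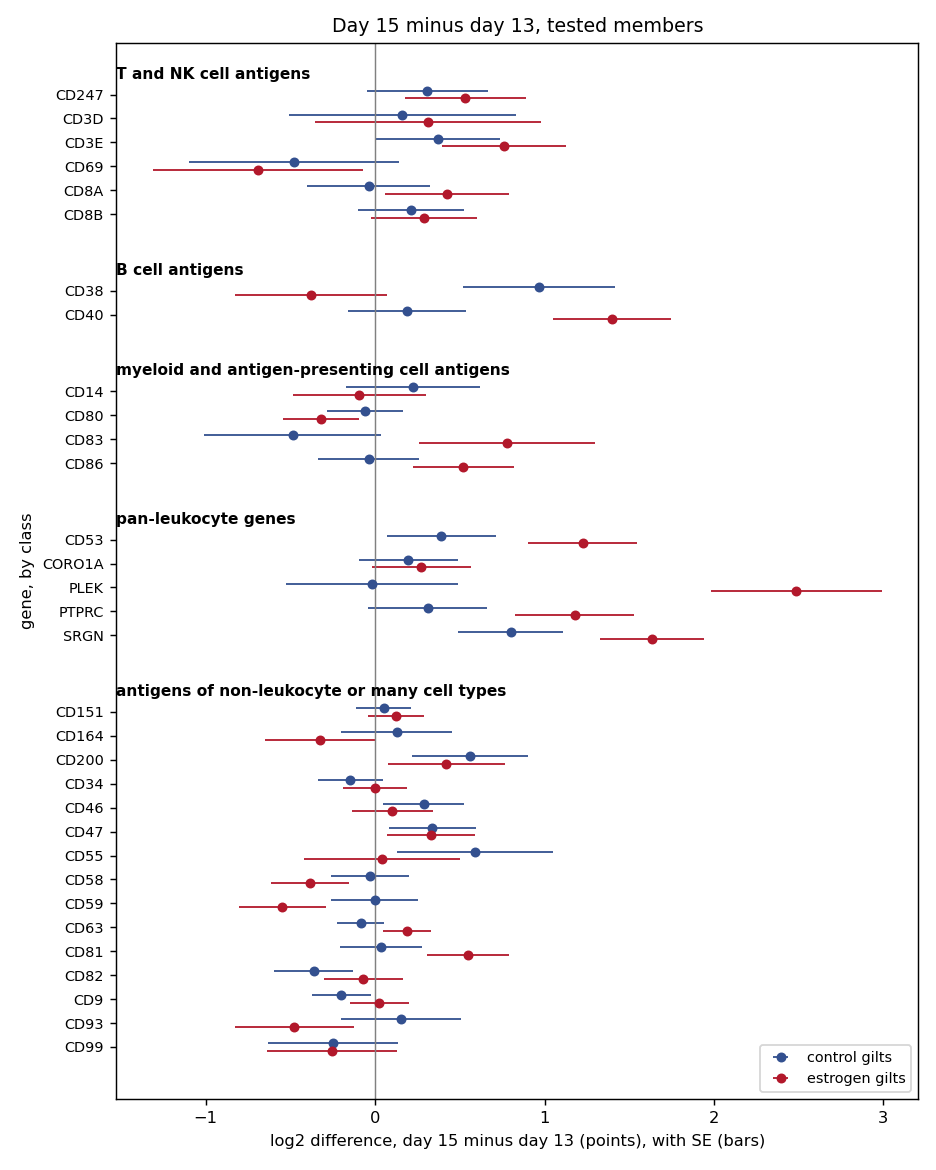
Day 15 minus day 13 difference in log2(signal + 16) for the 32 tested members by class, with its SE from limma, in control gilts (blue) and estrogen gilts (red). PLEK (2.49), SRGN (1.64), CD40 (1.4), CD53 (1.23) and PTPRC (1.18) lie farthest to the right in estrogen gilts, and most antigens of non-leukocyte or many cell types lie near 0 in both.

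Over the groups that do not overlap, 9 of the 32 tested members were higher and 1 was lower at day 15 after estrogen, where 7.96% and 6.5% of all probe sets were. By class these 9 were 4 of 5 pan-leukocyte genes (3 of 4 without PLEK), 3 of 15 antigens of non-leukocyte or many cell types, 1 of 6 T and NK cell antigens, 1 of 2 B cell antigens and 0 of 4 myeloid antigens. A test of classes against each other was not made, and members that share a cell type are not independent of each other.

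In control gilts the days differed less clearly. None of the 32 members passed (0 of all probe sets, 0%, with 656 at an unadjusted limma p under 0.05), and no member's days were without overlap in either direction (1.74% of all probe sets higher, 1.78% lower). Here 2 members, SRGN and CD38, had an unadjusted p under 0.05, both higher at day 15, as 1.86% of all probe sets were. Dimmer tested probe sets at such a p were higher for CD53 (0.52) and lower for CD82 (-0.54). SRGN had 9.83, 9.11, 8.73 and 8.57 at day 13 and 9.89, 10.31 and 9.37 at day 15, a difference of 0.80 ± 0.31 (SE; limma adjusted p = 0.966). The highest value of day 13 and the lowest of day 15 were on the 2 control arrays that stand apart.

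Control gilts had similar extremes for PTPRC and CD53. PTPRC had 7.10, 5.53, 6.64 and 6.84 at day 13 and 7.10, 7.16 and 6.25 at day 15. CD53 had 8.82, 8.21, 7.46 and 7.90, then 8.74, 8.77 and 7.95. For both genes control day 13 replicate 1 was the highest of its day and control day 15 replicate 3 the lowest. Their differences were 0.31 ± 0.35 and 0.39 ± 0.32 (SE) with all arrays, and 0.79 and 0.90 without the 3 arrays, none past the threshold (limma adjusted p of 0.984 and 0.744).

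PLEK had 7.10, 7.04, 5.50 and 5.87 at day 13 in control gilts and 6.72, 6.81 and 5.55 at day 15, a difference of -0.02 ± 0.51 (SE). CD40 had 8.27, 6.97, 6.96 and 7.08, then 7.59, 7.70 and 7.24, and again the highest value was on control day 13 replicate 1. The class medians for control gilts were 0.19 for T and NK cell antigens, -0.05 for myeloid antigens, 0.31 for pan-leukocyte genes and 0.04 for antigens of non-leukocyte or many cell types, beside -0.02 for all probe sets. Without the 3 arrays the pan-leukocyte median was 0.79 (0.85 without PLEK), beside 0.04 for all probe sets. The 2 tested B cell antigens had 0.97 (CD38) and 0.19 (CD40). CD38 had 6.93, 6.78, 7.12 and 6.49 at day 13 and 6.86, 7.75 and 8.79 at day 15, and without the 3 arrays its difference was 0.50.

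**Figure D4:**
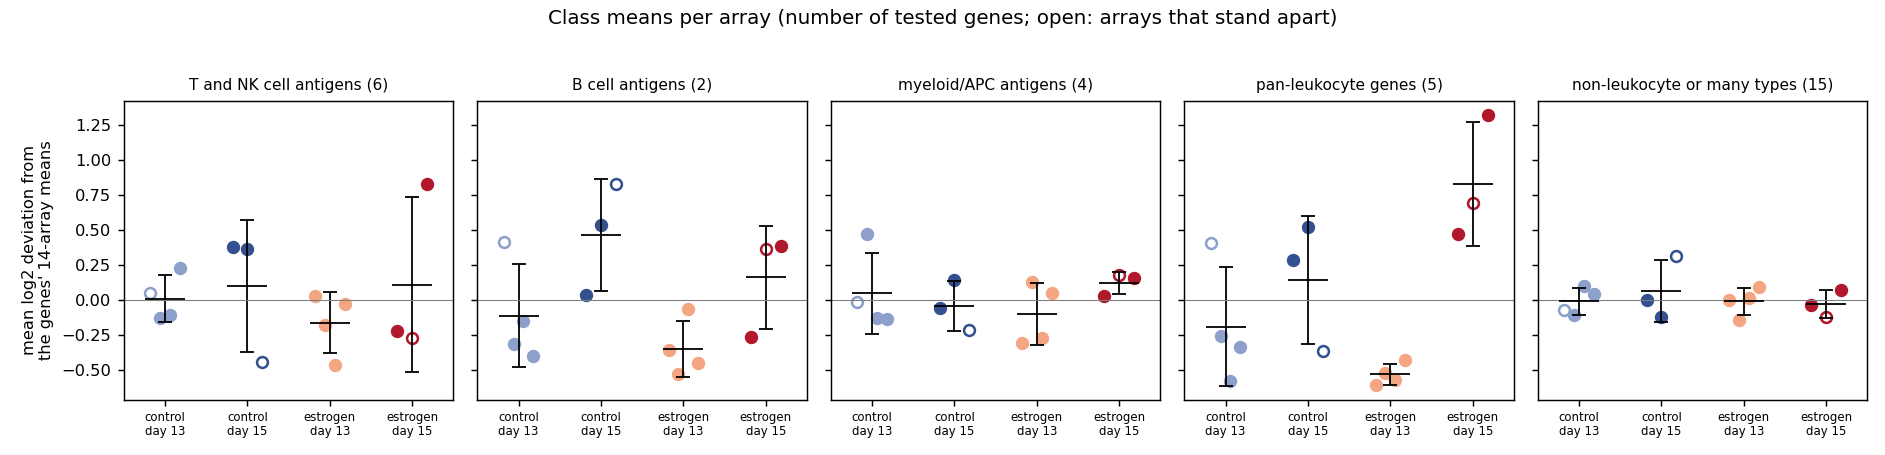
Mean deviation of each class on each of 14 arrays, in log2 units from the genes' own means over all arrays, by group, with mean and SD (n = 4 at day 13, n = 3 at day 15); numbers in brackets are the tested genes, and open circles the 3 arrays that stand apart. The pan-leukocyte class, PLEK included, lies at -0.61 to -0.43 in estrogen gilts at day 13 and 0.47 to 1.32 at day 15. The myeloid class lies at -0.31 to 0.13 and 0.03 to 0.17.

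Averaged over both treatments, day 15 was above day 13 for all 5 pan-leukocyte genes, at a median of 0.81 (0.78 without PLEK). SRGN was the highest-ranked member by p, with a difference of 1.22 ± 0.22 (SE), or 2.33-fold (limma adjusted p = 0.11). PLEK differed by 1.23 ± 0.36, CD53 by 0.81 ± 0.23, CD40 by 0.79 ± 0.25 and PTPRC by 0.74 ± 0.25. With CD3E (0.57 ± 0.26), 6 members had an unadjusted limma p under 0.05, all of them higher, as 4.65% of all probe sets were. None passed, where 1 of all probe sets did (0.00597%). Dimmer tested probe sets at an unadjusted limma p under 0.05 were lower for CD59 (-0.56) and CD82 (-0.44), and higher for CD40, CD53 and CORO1A. Without the 3 arrays SRGN (1.44 ± 0.18, adjusted p = 0.00278) and CD53 (1.17 ± 0.18, adjusted p = 0.00793) passed, against 0.985% of all probe sets, and both passed with array weights (0.71%). SRGN also passed without control day 13 replicate 1 alone (1.35, adjusted p = 0.0104; 0.603% called).

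Estrogen against control was compared within each day and over both days. At day 13 none of the 32 members passed (0% of all probe sets), none had an unadjusted limma p under 0.05 (2.89% of all probe sets did) and in none were the groups without overlap (1.74% of all probe sets higher, 0.985% lower). Of the tested members 11 were higher and 21 lower in estrogen gilts, where 46.8% of all probe sets were higher, at a median of -0.13, beside -0.02 for all probe sets. All 5 pan-leukocyte genes were lower, by -0.80 ± 0.47 (SE; ± 0.50 with the replicate number as a block, and lower in 4 of 4 same-numbered pairs) for PLEK, -0.40 for CD53, -0.26 for PTPRC, -0.15 for SRGN and -0.09 for CORO1A. They were, with the 3 arrays left out, -0.56, -0.16, -0.07, 0.11 and -0.02, so that SRGN changed side. Same-numbered pairs were counted for PLEK alone, and the labels name no pairing.

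CD40 at day 13 was 0.55 ± 0.32 (SE) lower in estrogen gilts with all arrays, and its highest control value, 8.27, was on replicate 1. CD83 spread over 6.33 to 9.02 in control gilts and 6.27 to 7.85 in estrogen gilts (difference -0.66 ± 0.48). CD14 had 5.70, 7.90, 7.42 and 7.52 in control gilts at day 13, the low value again on replicate 1, and 7.28 to 7.72 in estrogen gilts. Its difference of 0.30 became -0.18 without that array.

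At day 15 PLEK had the largest fitted difference, again as a description, with 6.72, 6.81 and 5.55 in control gilts and 7.48, 7.64 and 9.07 in estrogen gilts. All 3 estrogen arrays lay above all 3 control arrays, and the difference was 1.70 ± 0.54 (SE), or 3.25-fold (limma adjusted p = 0.985). CD38 differed by -1.27 ± 0.48 (SE; limma adjusted p = 0.985), and by -0.77 without control day 15 replicate 3. CD58, the ligand of CD2, had 8.26, 8.43 and 8.82 in control gilts and 7.74, 8.31 and 7.63 in estrogen gilts, a difference of -0.61 ± 0.25 (SE). PLEK, CD38 and CD58 were the 3 members with an unadjusted p under 0.05, of 32, where 3.83% of all probe sets were. None passed after adjustment, nor did any probe set (0%, 642 unadjusted). Dimmer tested probe sets of members at an unadjusted limma p under 0.05 were those of CD59 (-0.95) and CD164 (-1.54). Both were lower in estrogen gilts without overlap.

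PLEK, CD40 and CD81 were higher in estrogen gilts at day 15 without overlap and CD59 was lower, in a design where 4.12% and 3.18% of all probe sets were. CD40 had 7.59, 7.70 and 7.24 in control gilts against 7.85, 8.18 and 8.47. CD81 had 12.05, 11.65 and 12.19 against 12.20, 12.20 and 12.31, so that the nearest arrays were almost level. CD59 had 11.52, 11.26 and 11.53 against 11.06, 10.90 and 11.19. PTPRC, CD53 and SRGN were 0.60 ± 0.37, 0.44 ± 0.34 and 0.69 ± 0.33 (SE) higher with overlapping groups, and 0.30, 0.38 and 0.39 without the 3 arrays. The second tested probe set of CD53 was level with all arrays, at -0.0044.

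Over both days CD58 was the 1 tested member with an unadjusted p under 0.05 (3.22% of all probe sets), with a difference of -0.43 ± 0.16 (SE; limma adjusted p = 1; 0% of all probe sets passed). By p, CD38 (-0.59 ± 0.32) and CD46 (-0.31 ± 0.17) followed, both lower, and then CD200 (0.41 ± 0.24), higher. Of the dim members, in the fit without the filter, CD1E also had an unadjusted p under 0.05, with a difference of 0.82 ± 0.27 over both days (limma adjusted p = 1) and 1.49 ± 0.40 at day 15 (adjusted p = 0.974). Class medians were -0.03 for T and NK cell antigens, -0.02 for myeloid antigens, 0.17 for pan-leukocyte genes and -0.08 for antigens of non-leukocyte or many cell types, beside 0.01 for all probe sets.

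**Figure D5:**
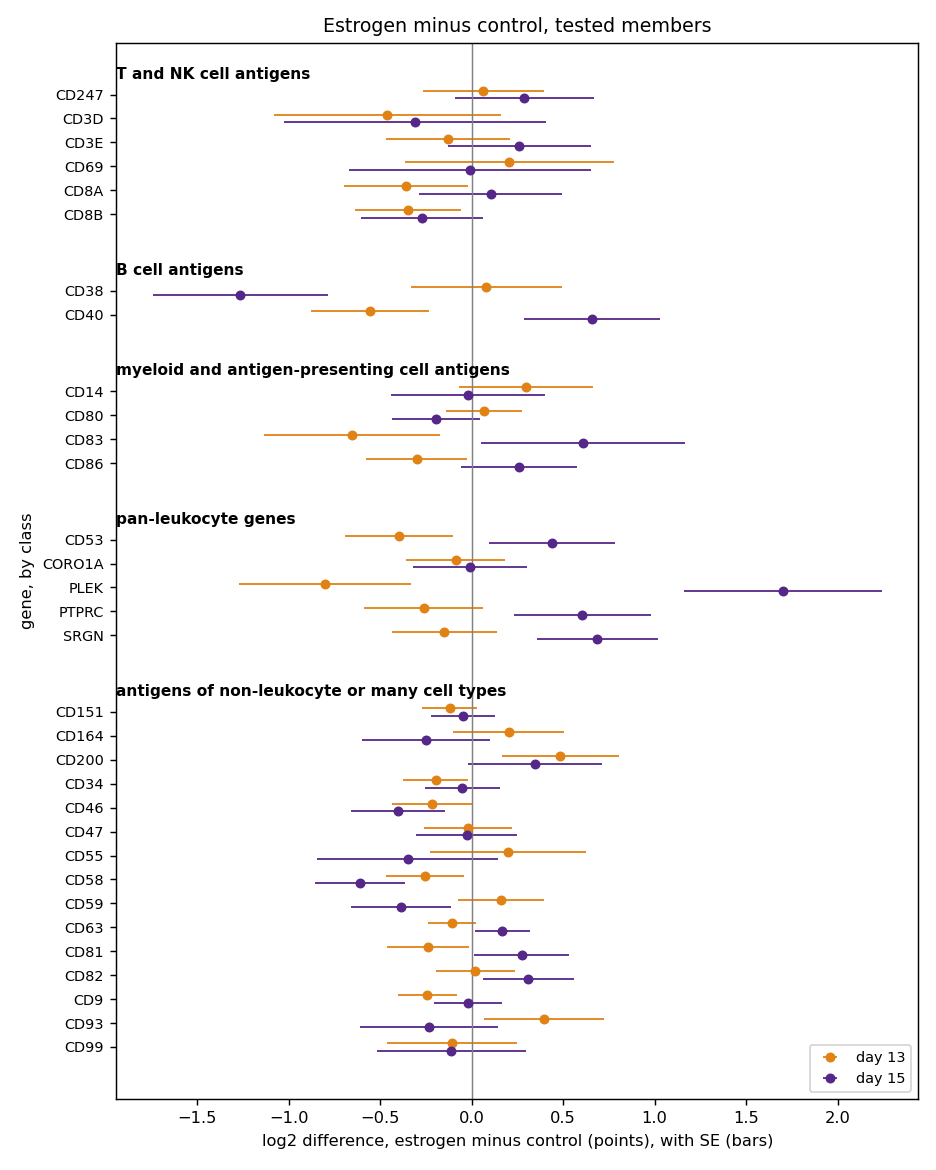
Estrogen minus control difference in log2(signal + 16) for the 32 tested members by class, with its SE from limma, at day 13 (orange) and day 15 (purple). PLEK lies at -0.80 at day 13 and 1.70 at day 15, and CD38 at 0.08 and -1.27; no member passed the threshold on either day.

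Ranked by p, the estrogen effect differed most between the days for PLEK, by 2.50 ± 0.72 (SE; a description, since it entered the tested set through 1 of these groups), and for CD40, by 1.21 ± 0.49, the 2 members with an unadjusted limma p under 0.05. Neither passed (adjusted p = 0.99 each), and no probe set did (0%, with 595 or 3.55% at an unadjusted p under 0.05). Differences between days in how estrogen acted on the other 30 tested members had an unadjusted p over 0.05, which does not show that they were alike. The 4 comparisons within a day or a treatment share arrays, so their values are not independent of each other.

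Other leukocyte genes outside the members were read beside them. The genes named from each list are those with the lowest p in it. Of all probe sets in estrogen gilts 52.3% were higher at day 15, 4.77% were so at an unadjusted p under 0.05, and 1.32% passed without the 3 arrays. In estrogen gilts 9 of 10 tested pan-leukocyte genes were higher at day 15, at a median of 1.4, with 7 at an unadjusted limma p under 0.05, 0 past adjustment, and 5 past it without the 3 arrays. ITGB2, the shared beta chain of leukocyte integrins, differed by 1.63 ± 0.35 (SE) and GMFG, an actin regulator of leukocytes, by 2.04 ± 0.45. All 11 tested myeloid genes were higher, at a median of 1.38, with 7 at an unadjusted p under 0.05 and 6 past adjustment without the 3 arrays. MRC1, the mannose receptor of macrophages, differed by 2.29 ± 0.34 and CD163, their haemoglobin scavenger receptor, by 1.04 ± 0.24. The myeloid CD antigens among the members, CD14, CD80, CD83 and CD86, thus had a median of 0.21 where other myeloid genes had 1.38, and the difference between these lists was not tested. The control gilts ran the same way: 10 of 11 myeloid genes were higher at day 15, at a median of 0.53, and 8 of 10 pan-leukocyte genes, at 0.33, where 47.6% of all probe sets were higher. Without the 3 arrays these control medians were 1.28 and 0.94, with 10 and 8 genes at an unadjusted limma p under 0.05 and higher (3.2% of all probe sets) and 0 past adjustment.

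Of other T and NK cell genes 5 of 7 tested were higher in estrogen gilts at day 15, where 52.3% of all probe sets were, at a median of 0.54, and 3 of them at an unadjusted limma p under 0.05 (4.77% of all probe sets). In control gilts 7 of 7 were higher, where 47.6% of all probe sets were, at a median of 0.16. Without the 3 arrays that stand apart, 6 of 7 were higher in control gilts, where 57.4% of all probe sets were, at a median of 0.58. IL2RG, the shared chain of cytokine receptors, differed by 1.62 ± 0.36 (SE) and LCK, the kinase bound to CD4 and CD8, by 0.70 ± 0.31. Only 2 other B and plasma cell genes were tested. BLNK, a B cell adaptor, differed by 1.06 ± 0.31, and JCHAIN, which joins secreted immunoglobulins, by 0.02. Partners of CD antigens had 8 of 9 higher at a median of 0.44 in estrogen gilts and 6 of 9 at 0.18 in control gilts (52.3% and 47.6% of all probe sets). After estrogen the former held C3, the complement protein on which CD46 and CD55 act, at 2.40 ± 0.63, and LY96, which forms a receptor for lipopolysaccharide with TLR4, at 0.55 ± 0.28.

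Over the 14 arrays, the 5 named genes outside the members whose levels were most like PTPRC were LCK, CTSS, LAPTM5, LCP2 and CLEC18C, with Pearson correlations of 0.929 to 0.916 as a description. After each group's mean was taken away the correlations were 0.925, 0.850, 0.859, 0.842 and 0.857. These values, called within groups here, pool the deviations of all 14 arrays. Likeness inside any 1 group was not tested. Among the members CD3E was the most like PTPRC (0.862, and 0.815 within groups), followed by CD40 (0.786 and 0.540), SRGN (0.772 and 0.444), CD53 (0.734 and 0.419) and CD8A (0.685 and 0.759). CD81, a tetraspanin of most cells, was level with CD8A (0.685 and 0.506). PLEK had 0.663 but 0.220 within groups. CD59 was the least like it, at -0.764 and -0.659 within groups. The arrays of the same gilts gave all these values, and the 3 arrays that stand apart are among them; over the other 11 the values for CD3E, CD40, SRGN and CD59 were 0.924, 0.765, 0.737 and -0.753.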

How the data were processed

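The members and gene lists were chosen with earlier results of these data known. Biotin-labelled RNA of each gilt was hybridised to its own array. The authors deposited a linear signal intensity for each probe set; software and scaling target are not given in the sources used here. The 2% trimmed mean was 500.1 on every array, so values had been scaled before deposition. Of 24123 probe sets, 188 controls and the dimmest 30% by mean log2(signal + 16) were left out, which left 16754. All 41 members' gene identifiers matched RefSeq's table by symbol. Sequences were not used here.

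Group means of all 14 arrays were fitted together (R 4.3.3, limma 3.58.1, lmFit and eBayes with a trend), p-values of each of 7 comparisons were adjusted by Benjamini-Hochberg across these 16754, and 0.05 was the threshold; the method was tested on simulated data. Python 3.11.15 and matplotlib 3.10.9 drew the figures. Values in every array were given for PTPRC, SRGN, CORO1A, PLEK and up to 5 members of each class with the lowest p. They were also given for other members chosen after their values were seen. From each other list the 2 genes with the lowest p were named. Arrays whose median correlation lay over 3 median absolute deviations below the median stood apart. Their number limits the precision, and p-values measure the spread between these gilts. Same-numbered arrays of the day 13 groups deviated together (4 pairs, correlations 0.132 to 0.283, against -0.259 to 0.100 for other pairs), which was taken as a possible pairing from the values alone; pairs of the other comparisons did not all exceed 0.1. The alternatives were other filters, pseudocounts, quantile normalization, array weights, fits of only the groups compared, replicate number as a term, an RNA quality covariate, all probe sets of a gene, and arrays left out.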

Additional observations from a re-analysis of the deposited data

Results flagged for a closer look

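CD40 in control gilts at day 13 had 1 array far from the others of its group: 8.27 on replicate 1 against 6.96 to 7.08 on the other three. Replicate 1 is 1 of the 3 arrays that stand apart over all probe sets. Of 42 groups of 4 arrays looked at for the members given in full, this was the 1 so found, where chance gives about 1 in 20.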

How the results depend on the processing

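No member passed in the all-array fit. The count of members past the threshold between the days after estrogen was 3 with array weights (SRGN, CD53 and, as a description, PLEK). It was 2 when only the groups compared were fitted (SRGN and, as a description, PLEK). It was 3 without the 3 arrays that stand apart (2 without PLEK), and 0 to 1 with each array left out in turn. Over both treatments it was 2 with array weights, 2 without the 3 arrays and 0 to 1 with each array left out. In the other 5 comparisons it was 0 in every setting. The replicate block left 0 members called in all 7 comparisons. Class medians shifted by more than the spread between arrays as follows. With the dimmest 50% left out, CD69 alone was left of the T and NK cell antigens (-0.59 over both treatments, -0.48 in control and -0.69 in estrogen gilts between the days; 0.21 for estrogen at day 13), the myeloid median after estrogen was 0.52, and B cell antigens had no value. Without a filter the medians were 0.23 (B cell, days in control gilts), 0.39 (B cell, estrogen at day 15), 0.52 (myeloid, days after estrogen) and 0.15 (myeloid, estrogen at day 13). Between the days in control gilts, the median of antigens of non-leukocyte or many cell types was -0.11 with array weights, -0.11 without the 3 arrays and -0.10 with the RNA quality covariate as well, and the pan-leukocyte median was 0.79 and 0.78 in the last 2. With covariate and arrays left out together, an alternative chosen after seeing the data, no member passed and medians were 1.44 (pan-leukocyte, both treatments), 2.00 (pan-leukocyte, after estrogen), 0.75 and 1.09 (T and NK cell, the same), 0.48 (myeloid, after estrogen), 0.35 (myeloid, estrogen at day 15) and 0.50 (T and NK cell, estrogen at day 15). The T and NK cell median for estrogen at day 15 was -0.38 to 0.29 with each array left out, the lowest without estrogen day 15 replicate 3, and -0.36 without control day 15 replicate 3. Signs turned for CD14 at day 13 (-0.045 with array weights, -0.18 without the 3 arrays, -0.24 with the covariate too, and -0.18 to 0.55 with each array left out, the lowest without control day 13 replicate 1) and for CD69 over both treatments (0.0736 with the covariate and without the 3 arrays). The cause was not tested.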
